A study of Mus musculus with 20 samples.

Results

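Ribosomal protein pseudogenes and retrotransposed copies were followed in whole spleens of mice carrying a transplanted T-cell acute lymphoblastic leukemia in which Acly, the enzyme that makes cytosolic acetyl-CoA from citrate, can be deleted. A locus was a member if its symbol began with Rpl or Rps and ended in -ps and a number or in rt, and it was further chosen by its level, a normalized count of 10 or more in 4 or more libraries of a table. By this rule 62 loci of 27465 listed in either table were members, 37 named for large subunit proteins (Rpl) and 25 for small subunit proteins (Rps), and 3 of the 62 ended in rt. There were 55 members in the acute table, out of 153 rows with such a symbol and 26099 rows in all, and 59 in the survival table, out of 157 and 26486. Membership in both tables was met by 52 loci, in the acute table only by 3 and in the survival table only by 7. The rule used the level of a locus, so the levels below are a description. It named no group, but 3 members reached the level through 1 group alone, Rps10-ps2 in acute WT and Rpl27-ps1 and Rps12-ps4 in survival KO. For these the rule favoured a difference between the groups, so their values are given without a test and they are left out of the counts of members that differed.

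The 20 libraries came from mice that were sub-lethally irradiated and injected intravenously with T-ALL cells carrying the conditional Acly allele, the controls included. The acute groups were overtly leukemic mice given corn oil (WT, 6 libraries) or 3 mg tamoxifen in corn oil (KO, 4 libraries), with spleens taken 72 h later. The survival groups were given corn oil (WT, 5 libraries) or the same tamoxifen dose (KO, 5 libraries) 48 h after transplantation, with spleens taken at the humane endpoint. WT therefore names vehicle-treated conditional leukemia, tamoxifen was given to KO mice only, the Cre is not named in the labels, and deletion and tamoxifen cannot be told apart. The spleen suspension was depleted of red cells and no sort of leukemic cells is named, so each library also holds host cells. Whether every library came from its own mouse is not stated in the labels, so p-values speak of variation among libraries, which may be technical. The sex, age and strain of the mice are not given in the labels used here.

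Processed pseudogenes arise when a spliced messenger RNA is copied into DNA by retrotransposon enzymes and inserted elsewhere, without the introns and usually without the promoter of its parent. Ribosomal protein genes, whose short and abundant messages encode the proteins of the 2 ribosomal subunits, have left many such copies in mammalian genomes. Recent copies keep the letters of the parent's coding sequence, and a short read from such a stretch fits both loci. The quantifier named in the submitters' processing notes, kallisto, divides a read that fits several transcripts among them by proportions estimated from the whole library. The value of a member is therefore partly or wholly an estimate of how shared reads were divided, and the parent is given beside it throughout.

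How far each copy still matches its parent was read from GENCODE M21 transcripts (GRCm38), in which 53 of the 62 members were found by symbol. The tables were made on GRCm39, so no coordinates are given. The transcripts were cut into all overlapping words of 31 bases, and a word was counted as shared if it also occurred in a transcript of the parent. For the sequences that follow, a window of 90 bases was taken from the parent's coding sequence with the same stretch of its copies, 5′ to 3′, and capitals mark bases that differ from the parent. The Rps16 window (bases 181 to 270 of the coding sequence) is shown because it sets a copy with high normalized counts, Rps16-ps2, beside one with low counts, Rps16-ps3. The Rps16 protein is part of the small subunit, with its tail near the decoding site.
Rps16: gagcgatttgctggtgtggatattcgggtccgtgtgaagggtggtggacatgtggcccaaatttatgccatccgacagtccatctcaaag
Rps16-ps2: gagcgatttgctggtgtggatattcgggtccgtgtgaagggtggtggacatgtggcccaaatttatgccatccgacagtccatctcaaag
Rps16-ps3: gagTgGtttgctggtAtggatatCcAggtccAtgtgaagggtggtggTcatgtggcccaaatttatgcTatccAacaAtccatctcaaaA
Rps16-ps2 had 0 differing bases in the window and Rps16-ps3 had 11. The Rpl31 window (bases 226 to 315) is shown for a family with 3 members of very unequal match. Rpl31 encodes a large subunit protein at the exit of the peptide tunnel.
Rpl31: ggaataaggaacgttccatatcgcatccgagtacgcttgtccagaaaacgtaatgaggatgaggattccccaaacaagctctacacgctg
Rpl31-ps8: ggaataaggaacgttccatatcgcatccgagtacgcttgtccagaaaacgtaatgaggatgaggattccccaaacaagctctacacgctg
Rpl31-ps9: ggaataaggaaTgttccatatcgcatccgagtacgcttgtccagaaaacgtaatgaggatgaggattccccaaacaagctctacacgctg
Rpl31-ps4: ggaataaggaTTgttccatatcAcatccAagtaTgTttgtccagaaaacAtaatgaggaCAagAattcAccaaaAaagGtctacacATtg
Rpl31-ps8 had 0 differing bases, Rpl31-ps9 had 1 and Rpl31-ps4 had 15. The Rpl10a window (bases 103 to 192) is shown for the member whose values varied most within the acute control group. Rpl10a encodes the protein of the mobile L1 stalk of the large subunit.
Rpl10a: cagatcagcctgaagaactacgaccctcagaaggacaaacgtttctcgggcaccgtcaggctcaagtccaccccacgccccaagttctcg
Rpl10a-ps1: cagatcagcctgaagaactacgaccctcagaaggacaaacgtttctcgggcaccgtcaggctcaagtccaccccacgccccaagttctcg
Rpl10a-ps2: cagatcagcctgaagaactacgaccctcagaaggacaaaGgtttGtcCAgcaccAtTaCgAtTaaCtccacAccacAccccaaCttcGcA
Rpl10a-ps1 had 0 differing bases and Rpl10a-ps2 had 15. The windows of Rpl37 (bases 160 to 249) and Rpl14 (bases 334 to 423) are shown because their copies had high counts although they differ from the parent.
Rpl37: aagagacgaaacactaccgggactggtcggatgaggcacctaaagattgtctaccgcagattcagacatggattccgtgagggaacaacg
Rpl37rt: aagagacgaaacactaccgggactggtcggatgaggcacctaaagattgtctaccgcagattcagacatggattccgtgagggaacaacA
Rpl14: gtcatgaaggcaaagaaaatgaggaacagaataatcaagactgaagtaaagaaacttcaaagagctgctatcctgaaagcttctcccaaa
Rpl14-ps1: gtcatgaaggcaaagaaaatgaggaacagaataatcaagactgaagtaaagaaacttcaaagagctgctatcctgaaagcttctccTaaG
Rpl37rt had 1 differing base and Rpl14-ps1 had 2 in these windows. The windows of Rps6 (bases 289 to 378) and Rps10 (bases 385 to 474) are shown for a pair of copies with low counts. Of these, Rps10-ps2 reached the level through acute WT alone. Rps6 is the small subunit protein phosphorylated by S6 kinases.
Rps6: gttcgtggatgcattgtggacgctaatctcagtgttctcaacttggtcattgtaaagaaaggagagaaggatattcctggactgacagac
Rps6-ps1: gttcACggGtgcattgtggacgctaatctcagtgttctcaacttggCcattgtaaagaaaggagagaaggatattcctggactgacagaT
Rps10: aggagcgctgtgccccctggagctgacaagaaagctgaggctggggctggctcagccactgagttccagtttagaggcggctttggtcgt
Rps10-ps2: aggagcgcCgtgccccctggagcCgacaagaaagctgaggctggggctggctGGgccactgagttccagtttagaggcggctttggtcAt
Each of these copies had 5 differing bases in its window.

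The members fell into a small class with high values and a large class with low ones. A mean of 200 or more normalized counts in both tables was reached by 11 loci, a class set after the values were seen. They were Rps23-ps1, Rpl10-ps3, Rps16-ps2, Rpl15-ps3, Rpl31-ps8, Rpl28-ps1, Rpl36a-ps2, Rpl10a-ps1, Rpl14-ps1, Rpl37rt and Rps27rt. The lowest mean in this class was 339 in the acute and 440 in the survival table, and the highest mean of any other member was 104 and 107. These 11 loci carried 96.6 to 97.9% of the members' summed normalized counts in every library. All members together made up 0.179 to 0.274% of a library, against 5.61 to 7.55% for the 79 ribosomal protein genes themselves. Normalized counts are not divided by transcript length, so levels of different loci are not ranked per molecule here.

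Full overlap with the parent occurred only among the matched members with high values, while lesser overlap did not separate the classes. Of the 11, 7 had 100% of their 31-base words in the parent and 0 words of their own anywhere in the annotation: Rps23-ps1, Rps16-ps2, Rpl15-ps3, Rpl31-ps8, Rpl28-ps1, Rpl36a-ps2 and Rpl10a-ps1. Among the 42 other matched members 0 reached 100%, with a median of 72.6% and a range of 1.08 to 94.9%, and 4 had no word of their own because other genes shared them. In 9 of the 11 the aligned stretch was identical to the parent's coding sequence, a stretch covering 98.4% of it in Rps23-ps1. The other two differed slightly, Rpl14-ps1 by 4 mismatches and 3 gap bases and Rpl37rt by 1 mismatch. The remaining 4 of the 11 had words of their own, 25 in Rpl10-ps3, 25 in Rps27rt, 91 in Rpl14-ps1 and 363 in Rpl37rt, and the share of words found in the parent was 96.2, 91.6, 85.4 and 39.4% in the same order. For Rpl37rt the words were pooled over 3 transcripts of 294 to 682 bases, beside 294 bases of parent coding sequence. Its 39.4% therefore also counts words from outside the copied coding stretch. Low members reached shares similar to the higher of these, such as 94.9% in Rpl10-ps6, 94.7% in Rpl3-ps1 and 92.3% in Rpl9-ps6. Among the low members the mismatches ranged from 0 to 49 with a median of 6.

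**Figure D1:**
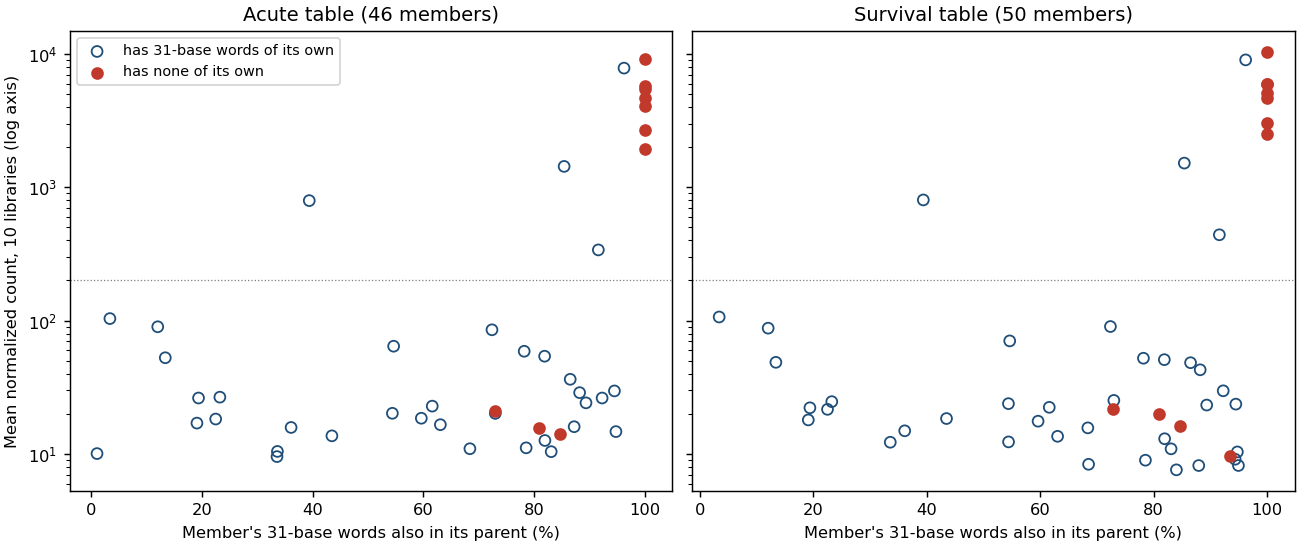
Mean normalized count over the 10 libraries of a table (log axis) against the percentage of a member's 31-base words that also occur in its parent, for the members matched in GENCODE M21. Filled points have no word of their own, the dotted line marks 200, and the 7 members at 100% all lie above it.

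The annotation places 23 of the 53 matched members over another annotated gene, 18 of them in an intron of a protein-coding gene. Among the members with high values, Rps16-ps2 lies in an intron of Adgrd1, Rpl28-ps1 in Zranb3, Rpl14-ps1 in Trpm4 and Rps27rt in Osbpl10, each on the opposite strand. Rpl36a-ps2 lies in an intron of Ddah1 on the same strand. Rps23-ps1 overlaps an exon of Gm5148 on the opposite strand. The annotation types 8 of the 11 as processed pseudogenes, Rpl37rt as a transcribed processed pseudogene, and Rpl10-ps3 and Rps27rt as protein-coding.

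Many of the low members lay close to the level threshold. The value was 10 or more in all 10 libraries for 31 members in the acute and 28 in the survival table, and in exactly 4 libraries for 3 and 7. The fourth highest value, on which the rule turns, was 10.2 for Rps7-ps3, 10.6 for Rps18-ps6 and 10.6 for Rpl9-ps7 just inside it in the acute table. It was 9.97 for Rpl30-ps9 and 9.83 for Rpl10-ps6 just outside. In the survival table it was 10.3 for Rpl30-ps9 and Rpl27-ps1 and 10.4 for Rpl17-ps10 inside, and 9.5 for Rpl34-ps2, 9.45 for Rps10-ps4 and 8.55 for Rps27a-ps2 outside.

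The level of Acly was read before the members were compared. Acly averaged 7735 ± 298 (SD, n = 6) normalized counts in acute WT and 5670 ± 766 (SD, n = 4) in acute KO, and 7889 ± 561 (SD, n = 5) and 3091 ± 712 (SD, n = 5) in survival WT and KO. Library totals lay between 19432235 and 21623571 normalized counts, which the scaling equalizes, so the read depth is unknown. In the acute table the KO libraries held more RNA of several other cell types. The sum of 14 neutrophil markers was 12131 to 49764 in WT and 180849 to 612169 in KO. All 14 were called higher, as were 13 of 13 monocyte and macrophage markers and 10 of 10 B cell markers, while 15 of 18 T-cell markers were called lower (median log2 fold change -0.33). Of 11 erythroid markers 0 were called, and their sums overlapped, at 16259 to 30785 in WT and 14920 to 49169 in KO. Less Acly RNA per cell and less RNA of leukemic cells cannot be told apart in the acute libraries. Over 21 alternative settings the acute log2 fold change of Acly ran from -0.77 to -0.08, and in 3 it was not called. The T-cell markers, defining for the labelled leukemia, were present in every group, with sums of 154982 or more. Within the survival comparison 0 markers of any list were called, where 0.012% of all genes tested were.

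In the acute comparison, which asks what 72 h after tamoxifen does in established leukemia, no member rose and 4 of 54 fell, leaving out Rps10-ps2. Among all 16363 genes tested, 31.4% were called at an adjusted p under 0.05 (limma with Benjamini-Hochberg adjustment), 16.7% higher and 14.7% lower, so the members' share of 7.41% lay below the background. The 2 classes differed: 3 of the 11 high members were called (27.3%) and 1 of 43 low members (2.33%). The median SE was 0.11 for the high members and 0.13 for all genes tested. For the low members, with Rps10-ps2 counted, it was 0.34, so fewer calls can be reached there. The median log2 fold change of the 54 was -0.05, beside -0.02 over all genes tested. The members that fell were Rpl31-ps8, Rpl15-ps3 and Rps23-ps1, which have high values, and Rps6-ps1. Of the 34 parents of acute members 25 fell and 0 rose, with a median of -0.23. Over the fixed list of ribosomal protein genes 59 of 79 fell and 0 rose, 25 of 32 for the small and 34 of 47 for the large subunit.

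Rpl31-ps8 had a lowest, median and highest value of 4678, 4985 and 5757 in WT, and 4385, 3677, 4069 and 3887 in the 4 KO libraries. Every KO library lay below every WT library. The log2 fold change was -0.34 ± 0.06 (SE), with an adjusted p of 0.0021 by limma. Rpl15-ps3, a copy of the large subunit gene Rpl15, had 5483, 5923 and 6436 as its lowest, median and highest WT value and 5438, 4606, 5013 and 3515 in KO. The groups again did not overlap, KO 4 was the lowest library, and the log2 fold change was -0.37 ± 0.10 (SE, limma adjusted p = 0.0138). Rps23-ps1, a copy of the small subunit gene Rps23 whose protein sits by the decoding centre, had 8195, 9969 and 10495 in WT and 9095, 8342, 8613 and 7535 in KO. WT 1 was below 3 of the 4 KO libraries, and the log2 fold change was -0.22 ± 0.07 (SE, limma adjusted p = 0.0383). Of the 54 members 2 (3.7%) had KO values wholly below WT, against 9.94% of all genes tested, and 0 wholly above, against 12.7%.

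The parents of these 3 copies had similar fold changes. In the acute comparison the log2 fold change was -0.23 ± 0.06 for Rpl31 (limma adjusted p = 0.0151), -0.27 ± 0.08 for Rpl15 (0.0247) and -0.16 ± 0.07 for Rps23 (0.114). The log2 ratio of member to parent, which no scaling of whole libraries can move except through the added pseudocount, differed between KO and WT by -0.11 for Rpl31-ps8 (exact two-sided permutation p = 0.248). It differed by -0.10 for Rpl15-ps3 (exact permutation p = 0.538) and by -0.05 for Rps23-ps1 (exact permutation p = 0.448). Over 54 acute pairs, Rps10-ps2 left out, 0 had an unadjusted exact permutation p under 0.05. The smallest p possible with 6 and 4 libraries is 0.00476. The mean ratio was higher in KO than in WT in 37 of the 54. When each parent was summed with its members, 28 of the 34 sums fell and 0 rose.

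The other member that fell had low counts. Rps6-ps1 had 13.1, 24.4 and 37.2 as its lowest, median and highest WT value and 17.4, 12.4, 9.51 and 13.7 in KO. The groups overlapped through WT 5, and the log2 fold change was -0.83 ± 0.29 (SE, limma adjusted p = 0.0494), beside -0.23 ± 0.07 for Rps6. Its ratio to the parent differed by -0.59 (exact permutation p = 0.0524). Rps10-ps2, which reached the level in WT libraries alone, had 3.30, 15.4 and 28.2 as its lowest, median and highest WT value and 7.63, 0, 4.62 and 4.35 in KO. These values are a description, since the level rule itself admitted the locus by its WT values.

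These acute calls moved with the scaling, the covariate and the libraries used. With the T-cell receptor beta genes as the scale, 0 members were called, the members' median was 0.22 and that of all genes 0.25, and Rps23-ps1 turned to 0.06. With scaling to Trbc1 and Trbc2 alone the members' median was 0.32 beside 0.35 for all genes. Of the 11 high members 10 were below 0 as deposited, 3 were with the beta gene scale and 1 with Trbc1 and Trbc2. The 36 parents of members in either table were all below 0 as deposited, and 28 and 36 of them were above 0 with these scales. A score of other cells was built from those of 63 listed markers that were tested. With this score as a covariate, 0 members and 0 of all genes were called. The score did not overlap between the groups, at -0.82 to -0.36 in WT and 0.12 to 1.42 in KO. This fit therefore cannot separate group from score, and its lost calls are no result about the members. Less RNA of leukemic cells and less ribosomal protein RNA per cell cannot be told apart in these libraries. Without KO 2 and 3, which had the highest score, 2 members were called. When each of the 10 libraries was left out in turn, Rpl31-ps8 and Rpl15-ps3 kept their call in all 10 and Rps23-ps1 and Rps6-ps1 in 2 each.

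The 11 high members varied within a group more than the sum of each with its parent. In the acute table the SD of log2 values within groups was 3.73 for Rpl10a-ps1, 0.21 for Rpl10a and 0.098 for their sum. Rpl10a-ps1 was listed at 0 in WT 2 and at 2065 to 4329 in the other 5 WT libraries, although it is identical in its coding sequence to its parent. In the survival table it stood at 2.87 in WT 5 and between 1615 and 2772 in the other 4 WT libraries. Rpl14-ps1, with an SD of 1.34 in the acute table against 0.077 for the sum, was at 132 in acute KO 4 and at 1794 to 2393 in the other 3 KO libraries. In survival WT it was at 460, 197, 135, 2143 and 2147. These 2 loci were the extremes, and the median SD of the 11 high members was 0.198 in the acute and 0.176 in the survival table. The median SD of the 9165 other acute genes with a mean of 200 or more was 0.118, and 9044 such genes in the survival table had 0.131. In some pairs member and sum barely differed, as for Rps16-ps2 in survival with 0.0978 and 0.0971.

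In the survival comparison, which asks what differs at the humane endpoint when tamoxifen was given soon after transplantation, 0 of 59 members were called. Of all 16630 genes tested 2 were called, 0.012%, 1 of them Acly. At an unadjusted p under 0.05 (limma), 10 of 57 members were higher and 1 lower, leaving out Rpl27-ps1 and Rps12-ps4, against 5.04 and 3.7% of all genes tested. The median log2 fold change of the 57 was 0.20, beside 0.007 over all genes. All 11 members with high values had a fold change above 0, from 0.05 to 2.60, as deposited and with quantile normalization, 10 of them with scaling to Trbc1 and Trbc2, but only 2 with the beta gene scale, where the median of all genes was -0.54 and theirs -0.22. As deposited 7 of them had an unadjusted limma p under 0.05. Of their parents 10 of 11 had a fold change below 0, and 0 were called. At an unadjusted limma p under 0.05, 3 of these parents were lower and 1 higher. A ratio to the parent therefore also holds the parent's change, such as -0.28 for Rps16 beside 0.10 for Rps16-ps2.

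Rpl36a-ps2, a copy of the large subunit gene Rpl36a, had 2384, 2764, 2591, 2893 and 2336 normalized counts in the 5 survival WT libraries and 3450, 3410, 3751, 3593 and 3362 in KO. Every KO library was above every WT library, and the log2 fold change was 0.44 ± 0.07 (SE), which missed the threshold over all genes (limma adjusted p = 0.062). Rpl37rt had 556, 610, 729, 700 and 687 in WT and 995, 891, 1025, 1004 and 840 in KO. The groups did not overlap, and the log2 fold change was 0.54 ± 0.09 (SE, limma adjusted p = 0.108). In the parents it was -0.09 ± 0.07 for Rpl36a and -0.02 ± 0.06 for Rpl37. Rps23-ps1 had 10228, 9974, 10261, 9053 and 8487 in WT and 10969, 10865, 11237, 11467 and 10616 in KO, again without overlap (log2 fold change 0.20 ± 0.06, SE, limma adjusted p = 0.315). In all 7 of the 57 members (12.3%) had every KO value above every WT value, against 1.19% of all genes tested, and 0 had every KO value below, against 0.788%. The 7 were Rpl10a-ps1, Rpl15-ps3, Rpl15-ps5, Rpl28-ps1, Rpl36a-ps2, Rpl37rt and Rps23-ps1.

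**Figure D2:**
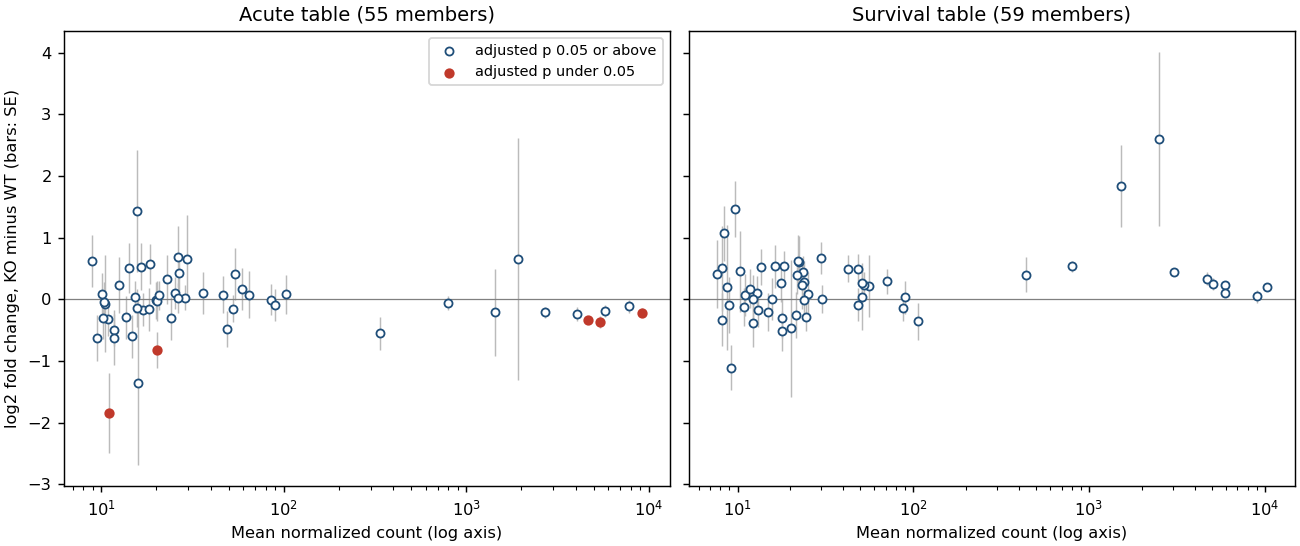
Log2 fold change of every member, KO minus WT, with its SE, against its mean normalized count (log axis) in the acute (55 members) and survival (59 members) tables. Filled points are the 5 members with an adjusted p under 0.05, all below 0 in the acute table and the lowest of them Rps10-ps2, which is not counted as a test, and the survival points at the right, the 11 high members, all lie above 0.

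Set against the parent, the survival groups differed in more pairs than the acute groups, a difference between the tables that was not itself tested on the ratios. The log2 ratio of member to parent was compared in 59 pairs, without adjustment, by an exact two-sided permutation test whose smallest p with 5 and 5 libraries is 0.00794. Leaving out Rpl27-ps1 and Rps12-ps4, it passed 0.05 in 13 of 57 pairs, 12 with the ratio higher in KO and 1 lower, and the KO and WT ratios did not overlap in 7. Among the 11 high members the ratio was higher in KO in all 11 pairs, passed 0.05 in 8 and did not overlap in 6. No such ratio exists for genes without a copy, so there is no background of all genes for this count. When each survival library was left out in turn, 6 to 9 of the 11 passed, and the ratio was higher in KO in all 11 except without WT 5, where it was in 10. Within the acute table the same ratio was higher in KO in 5 of the 11 pairs and passed 0.05 in 0. Without acute WT 2 it was higher in 2. It then passed 0.05 in 2 other pairs, those of Rpl28-ps1 and Rpl10a-ps1, and was lower in KO in both, opposite to survival. Without KO 2 it was higher in 3 and passed in 0. Without KO 4 it was higher in 7 and passed in 1, where it was higher in KO.

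As a share of the summed counts of the pair, Rps16-ps2 took 38.3, 37.1, 38.2, 40.8 and 38.9% in survival WT and 43.5, 44.7, 47.6, 44.8 and 45.1% in KO. All KO shares were higher, and the log2 ratio differed by 0.38 (exact permutation p = 0.00794). Rpl31-ps8 took 29.4, 28.6, 29.0, 21 and 19.8% in WT and 30.8, 31.5, 31, 30.3 and 30.9% in KO. Here WT 4 and 5 stood apart from the other 3 WT libraries, which came within a few percentage points of KO, and the ratio differed by 0.40 (exact permutation p = 0.00794). Rpl36a-ps2 took 24.5, 28.8, 26.7, 33.9 and 26.3% in WT and 34.5, 35.7, 37.2, 35.3 and 37.1% in KO, a ratio difference of 0.53 (exact permutation p = 0.00794). Rpl37rt took 8.87, 10.5, 11.2, 11.9 and 10.6% in WT and 15.1, 14, 16.3, 14.6 and 14.2% in KO, a ratio difference of 0.56 (exact permutation p = 0.00794).

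Rps23-ps1 took 52.9 to 57.9% of its pair in survival WT and 58.9 to 62.1% in KO, and Rpl10a-ps1 took 0.0175 to 18.2% and 18.5 to 29.6%, both without overlap. Rpl28-ps1, from a large subunit gene, took 8.06 to 18.4% and 17.7 to 20.1%, and Rpl15-ps3 took 24.7 to 32.9% and 29.7 to 33.3%, with overlap in each. For Rpl14-ps1, Rpl10-ps3 and Rps27rt the ratio differed by 1.86, 0.16 and 0.25, and the exact permutation p was 0.151, 0.349 and 0.603. Rpl10 encodes a large subunit protein that joins late in assembly, and Rps27 a zinc-binding small subunit protein. Over all 11 pairs together the members took 27.1, 26.0, 26.8, 27.8 and 22% of the summed counts in survival WT and 30.3, 30.9, 33.1, 30.4 and 31.6% in KO. In the acute table they took 30.0, 22.5, 27.6, 27.5, 27.3 and 27.2% in WT and 26.8, 28.1, 26.4 and 23.4% in KO. The acute groups overlapped and the survival groups did not. The shares of different pairs followed the library: acute WT 2 held the lowest WT share in 9 of the 11 pairs, acute KO 4 the lowest KO share in 8, and survival WT 5 the lowest WT share in 6. The 11 pairs share their libraries and are not replicates of one another.

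**Figure D3:**
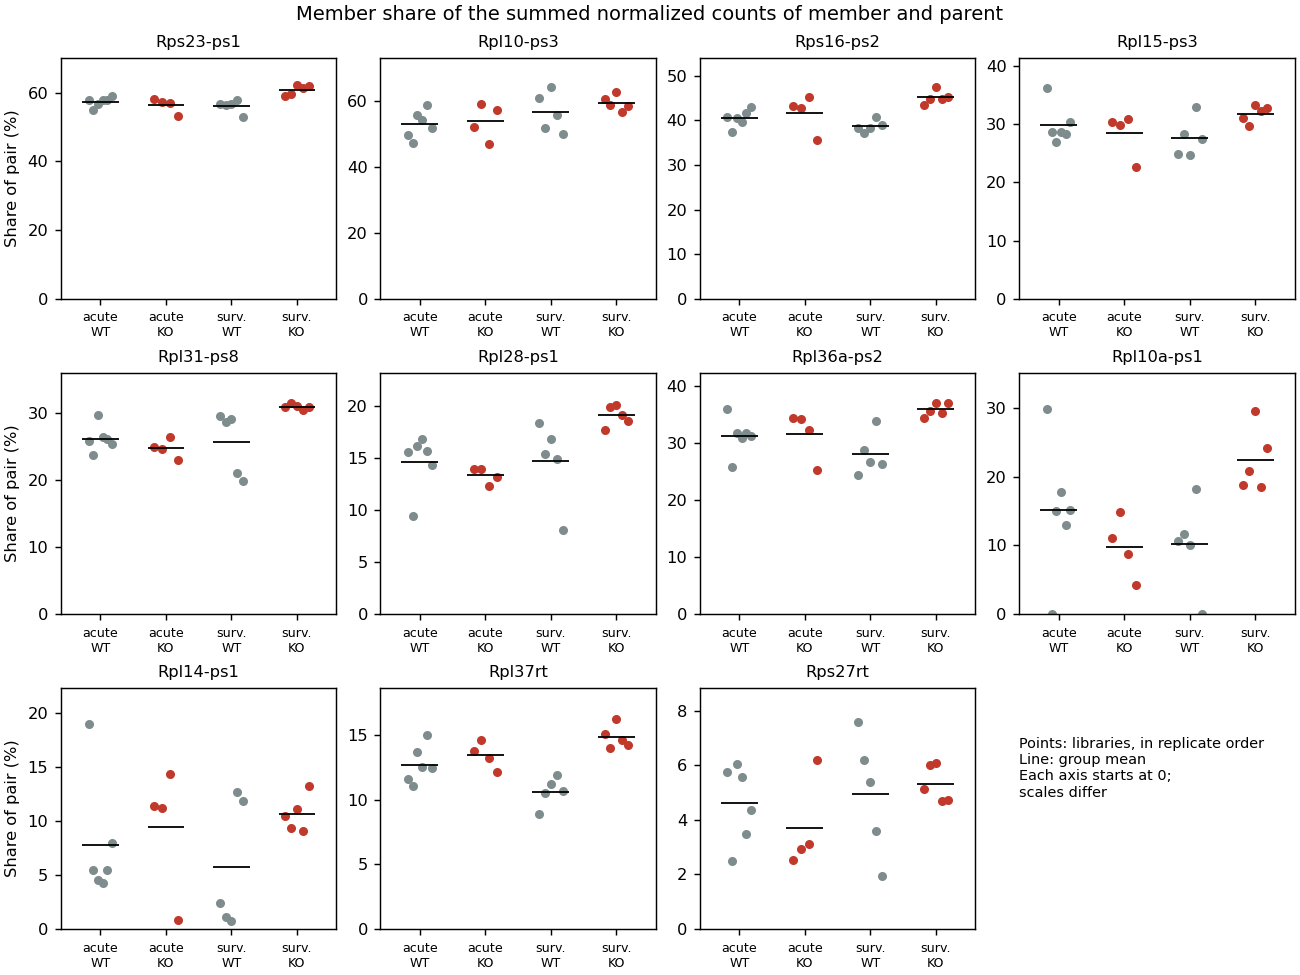
Share of the summed normalized counts of member and parent that the member took, in percent, for the 11 members with high values, by library (points) with the group mean (line). In the survival groups the KO points of Rps23-ps1, Rps16-ps2, Rpl31-ps8, Rpl36a-ps2, Rpl10a-ps1 and Rpl37rt lie above all WT points, and no acute panel has groups that do not overlap.

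With each parent summed with its members, 0 of 36 sums were called in survival and their median log2 fold change was -0.02. The sum for Rpl36a was 0.07 ± 0.06 (SE), that for Rpl37 0.05 ± 0.06 and that for Rpl31 -0.05 ± 0.05, with limma adjusted p-values of 0.735, 0.818 and 0.777. Among the parents of the high members the lowest sum was -0.12 ± 0.06 for Rps16 and the highest 0.15 ± 0.05 for Rps27 (limma adjusted p = 0.622 and 0.359). The survival marker lists gave no called gene, where 0.012% of all genes tested were called. At an unadjusted limma p under 0.05, 4 of 10 B cell markers and 1 of 18 T-cell markers were lower. At the same threshold 4 of 13 monocyte and macrophage markers and 1 of 11 erythroid markers were higher, and all 11 erythroid markers were above 0. The score of other cells overlapped between groups (-0.33 to 0.41 in WT, -0.45 to 0.61 in KO). The part of read division in the members' difference was not tested.

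**Figure D4:**
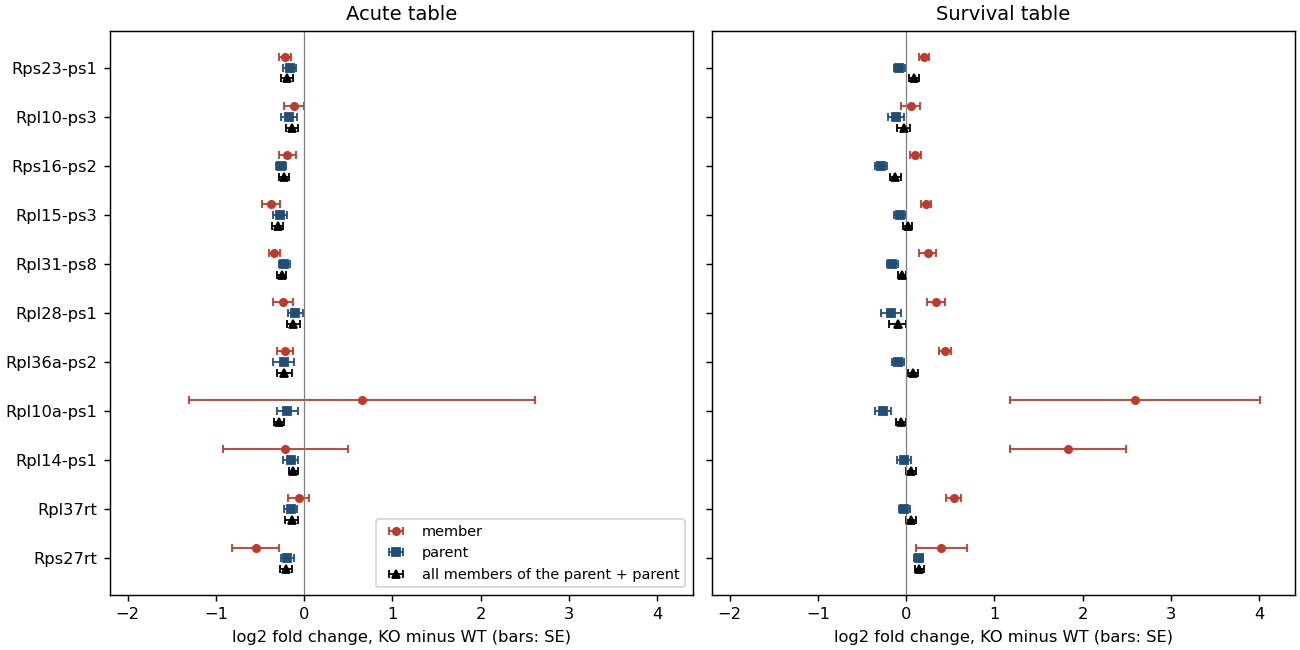
Log2 fold change, KO minus WT, of the 11 members with high values, of their parents and of each parent summed with all its members, with SE bars, in the acute and survival tables. In the survival panel the members lie to the right of their parents in all 11 pairs, and the sums run from -0.12 for Rps16 to 0.15 for Rps27.

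The low survival members lay on both sides of 0. Over 46 of them, Rpl27-ps1 and Rps12-ps4 left out, the median log2 fold change was 0.09, 3 were higher and 1 lower at an unadjusted limma p under 0.05, and 30 were above 0, in a table where 52.1% of all genes tested were above 0. Rpl15-ps5, with 14 mismatches to Rpl15 and 220 words of its own, had 15.4, 17.2, 17.6, 15 and 9.53 in WT and 19, 19, 21.1, 23.7 and 26.7 in KO. The groups did not overlap, and the ratio to Rpl15 differed by 0.61 (exact permutation p = 0.00794). The single pair whose ratio was lower in KO at an exact permutation p under 0.05 was Rpl9-ps4 (p = 0.0159), with 9.24 to 15.7 in WT and 1.90 to 10.04 in KO. Among its KO values only the highest reached the level of 10. The level rule thus favoured this difference, and its p-value carries little weight. The small subunit copy Rps16-ps3, the low member with the highest mean, had 86.2 to 186 in WT and 52.8 to 144 in KO (log2 fold change -0.36 ± 0.29, SE). Rpl27rt, the rt locus with low counts, had 13.8 to 23.8 in WT and 7.81 to 26.2 in KO.

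The difference between the arms was tested directly, as the survival fold change minus the acute one over all 20 libraries. Of 52 members 6 (11.5%) were called, all above 0, against 20.1% of the 15873 genes tested, 9.25% above 0 and 10.8% below. The 6 were all among the 11 high members, of whose parents 1 was called, while 29 of the 79 ribosomal protein genes were called, all above 0. In the same contrast 14 of 14 neutrophil markers were called below 0 with a median of -4.69, as were 9 of 10 B cell markers (median -1.88) and 6 of 13 monocyte and macrophage markers (median -0.63), while 13 of 18 T-cell markers were called above 0 (median 0.34). The part of the other cells in the members' difference was not tested. The difference was 0.65 ± 0.12 (SE) for Rpl36a-ps2 (limma adjusted p = 0.00044), 0.60 ± 0.12 for Rpl15-ps3 (0.00124) and 0.58 ± 0.12 for Rpl31-ps8 (0.00209). It was 0.42 ± 0.10 for Rps23-ps1 (0.00376), 0.60 ± 0.15 for Rpl37rt (0.00874) and 0.57 ± 0.16 for Rpl28-ps1 (0.0178). For Rpl10a-ps1 it was 1.94 with a 95% interval of -3.55 to 7.44, so that its library-to-library spread leaves the direction undetermined. With the T-cell receptor beta genes as the scale the median of all genes shifted to -0.79 and all 6 differences fell below 0, from -0.41 to -0.17, above that median.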

How the data were processed

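Polyadenylated RNA of leukemic spleens was sequenced in 20 strand-specific libraries. The authors deposited 2 tables of DESeq-normalized counts, a signal scaled separately in each table and not whole reads. The submitters' processing notes name kallisto 0.46.0, DESeq and the genome build GRCm39. Which annotation was used, and how reads that fit several loci were handled, is not given in the sources used here.

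Genes with a value of 10 or more in at least 4 libraries of a table were tested on log2(value + 1) with limma 3.58.1 in R 4.3.3 (lmFit, eBayes with a trend). Two-sided p-values were Benjamini-Hochberg adjusted over all genes tested and called under 0.05. Fold changes are on this scale and are understated for low values. The survival minus acute contrast used all 20 libraries. Member-to-parent log2 ratios were compared by exact two-sided permutation tests, unadjusted. The parent is the symbol left when the ending is removed. The scripts were tested on simulated data with known changes.

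GENCODE M21 transcripts (GRCm38) were matched by symbol and aligned with Biopython 1.88. The parent coding sequence was a complete one, at least as long as the principal one, with the fewest bases unmatched by its closest copy. Words of 31 bases equal the default word length of kallisto, and the length the authors used is not stated. Figures used Python 3.11.15 and matplotlib 3.10.9.

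Named loci were the called members, the 8 highest means per table, those ending in rt, the widest control ranges, those beside the level threshold, and Acly. Members and lists were chosen with earlier results of these data known. Alternatives comprised pseudocounts, filters, scalings, a score of other cells, a replicate block, array weights, left-out libraries and summed pairs. Scaling to Trbc1 and Trbc2, and several combinations for the arm contrast and the ratios, were chosen after seeing the data.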

Additional observations from a re-analysis of the deposited data

Results flagged for a closer look

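Among 27 members named by the rule, 96 groups of 4 to 6 values were looked at for a library far from the others, and 13 were found. Chance gives about 1 in 20 groups. Some of these members were named for their wide range in controls, so the number found cannot be set against that rate. All 13 are a lowest value. Rpl10a-ps1 was listed at 0 in acute WT 2 and at 2.87 in survival WT 5, and Rpl14-ps1 was at 132 in acute KO 4. Acute WT 2 also held the lowest Rpl28-ps1 value, 3104 against 4374 to 4682 in the other WT libraries. Acute WT 1 held the lowest Rps23-ps1 value, 8195 against 9719 to 10495, and survival KO 5 the lowest Rpl10-ps3 value, 7797 against 9288 to 9668. The other flagged values are of low-count loci: 0 for Rpl34-ps2 in acute WT 4, 4.68 for Rps18-ps6 in acute KO 3, 16.4 for Rps2-ps4 in acute KO 4 and 14.5 in survival KO 2. Rpl3-ps1 was at 0 in survival WT 5, Rpl34-ps1 at 0 in survival WT 3 and Rpl30-ps9 at 3.22 in survival WT 1.

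The fold changes of 6 members differed between the arms by the direct limma test of the difference, survival minus acute on the log2 scale. The differences were 0.60 for Rpl15-ps3, 0.57 for Rpl28-ps1, 0.58 for Rpl31-ps8, 0.65 for Rpl36a-ps2, 0.60 for Rpl37rt and 0.42 for Rps23-ps1.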

How the results depend on the processing

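In the acute comparison 5140 genes and 5 members were called, with Rps10-ps2, which reached the level through WT alone, still counted here. With the score of other cells as a covariate 0 genes and 0 members were called, and Rps10-ps2 turned to 0.39. With KO 2 and 3 left out together 2039 genes and 2 members were called. Members called were 3 with a pseudocount of 0.5, 3 with no filter on low values and 0 with either T-cell receptor scaling. When each parent was summed with its members, 28 of 34 sums were called, which are not calls of members. With scaling to Trbc1 and Trbc2, Rpl15-ps3 turned to 0.0023, Rpl31-ps8 to 0.038 and Rps23-ps1 to 0.16. With scaling to all T-cell receptor beta genes Rps23-ps1 turned to 0.060. Leaving out each library in turn gave 3590 to 5341 genes and 2 to 7 members: 2 without WT 3, WT 4, WT 6, KO 2 or KO 3, 3 without WT 1 or KO 4, and 7 without KO 1. Rpl31-ps8 and Rpl15-ps3 kept their call in all 10, and Rps23-ps1 and Rps6-ps1 in 2 of 10 each. With quantile normalization 7 members were called, all lower, and the median of all genes moved to -0.14.

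In survival 2 genes and 0 members were called. Scaling to the T-cell receptor beta genes gave 1722 genes, 1683 of them lower, and 3 members, 1 higher and 2 lower, with the median of all genes at -0.54. Array weights gave 11 genes and 1 member. The covariate gave 1 gene, and so did scaling to Trbc1 and Trbc2. Leaving out each library gave 1 to 23 genes and 0 to 2 members, the highest of both without WT 4, and 1 gene without WT 1, 2, 3 or 5 or KO 1 or 5.

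For survival minus acute, 3186 genes and 6 members were called. Scaling to the T-cell receptor beta genes gave 9979 genes, 9962 below 0, and turned all 6 members: Rpl15-ps3 to -0.23, Rpl28-ps1 to -0.26, Rpl31-ps8 to -0.25, Rpl36a-ps2 to -0.17, Rpl37rt to -0.23 and Rps23-ps1 to -0.41. Scaling to Trbc1 and Trbc2 gave 6989 genes and 1 member, and Rps23-ps1 was then -0.039. Without acute KO 2 and 3 there were 1268 genes and 5 members. Leaving out each library gave 2261 to 3613 genes and 6 to 7 members.

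Of the ratios to the parent, 0 acute pairs had an exact permutation p under 0.05. There were 2 with a pseudocount of 5, 1 without KO 2 and 3, and 0 to 4 with each library left out, 4 without WT 1 or KO 4. The 15 survival pairs, Rpl27-ps1 and Rps12-ps4 included, ranged from 9 to 15, the lowest without KO 4.

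Replicate numbers did not pair the libraries: the correlations of same-numbered libraries were -0.07 to 0.14 in acute and -0.01 to 0.11 in survival. With a replicate block the acute counts were 3294 genes and 3 members, and the survival counts stayed at 2 and 0. The cause of these changes was not tested beyond what each setting removes. Read depth is unknown, and a value under about 10 rests on few reads.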

Other observations

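Copies of other genes named in the same way were listed too. Beyond the ribosomal proteins, 15 pairs in the acute and 13 in the survival table had a copy with a mean of 200 or more, a set chosen after seeing the data. In the survival table the copy's mean share of the summed pair was higher in KO in 8 of the 13 and lower in 5, and the groups did not overlap in 2. These were Tpt1-ps3, a copy of the translationally controlled tumour protein gene, with 18.1 to 22.9% in WT and 23.9 to 25.7% in KO, and Ube2n-ps1, a copy of a ubiquitin-conjugating enzyme gene, with 26.1 to 31.6% and 33.2 to 36.1%. Uba52rt, a copy of a gene for a ubiquitin and ribosomal protein fusion, took 75.1 to 77.9% in WT and 74.6 to 77.1% in KO. In the acute table the share was higher in KO in 9 of the 15, and the groups did not overlap only for Ifi203-ps, with 4.85 to 5.27% in WT and 5.85 to 6.26% in KO.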
